A study of Homo sapiens with 3 samples.

Results

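ZNF148 intervals with several summits were taken from the ZNF148 ChIP-seq peak list of FaDu cells. A summit is the base at which the signal of a peak is highest, and the list gives a row to each summit. An interval was included when its chromosome, start and end stood in 2 or more rows, on chromosomes 1 to 22 and X. The rule found 1354 of 37883 ZNF148 intervals, or 3.57%. They were thus selected on the number of summits called in the ZNF148 list itself, so their summit number, spacing, length and ZNF148 strength describe what was chosen, and no test is attached to them. The p63 list comes from another library and was not used by the rule.

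FaDu is an established line from a squamous cell carcinoma of the pharynx, and the cells were untreated in all 3 samples. Antibodies to ΔNp63α and to ZNF148 gave 1 library each, and the third was input DNA made without antibody, whose peaks were not analysed here. Per the labels' protocols the DNA came from 3 separate ChIP assays. Each antibody is represented by 1 list from 1 line, so replicate error is unknown throughout and no p-value is given. Brackets after a percentage hold its 95% Wilson interval. It reflects counting error alone and assumes independent sites, and intervals of 1 library are not replicates.

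ZNF148, also called ZBP-89, is a zinc finger protein of the Krüppel type that binds G-rich and C-rich DNA and competes with Sp1 family proteins for such sequences at some promoters. ΔNp63α is the p63 isoform of basal squamous epithelium, binds DNA as a tetramer and recognises an element like that of p53. In ChIP-seq, fragments around 1 bound site pile up to 1 summit, and sites lying near each other can merge into a longer interval in which a peak caller separates several summits. The title of the series poses the cooperation of the proteins as its question, and the comparison made here is how often p63 was found at the long composite ZNF148 intervals. No sequence of the build of the lists was used, so base composition, motifs and genes at these intervals are not given.

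Most of these intervals held a pair of summits. There were 1171 intervals with 2 summits, 151 with 3, 27 with 4, 3 with 5, 1 with 6 and 1 with 9. Together they covered 0.940 Mb, which is 9.09% of the DNA under ZNF148 intervals. Their median length was 641 bp (quartiles 536 and 785 bp), against 243 bp (186 and 305 bp) for the 36529 intervals with 1 summit. The median rose from 611 bp with 2 summits to 988 bp with 3 and 1282 bp with 4.

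Length and summit number were closely tied. Of intervals of 300 to 399 bp, 0.660% had several summits, and of those of 400 to 499 bp 8.38% (7.23 to 9.68%). The share was 39.8% (36.5 to 43.2%) at 500 to 599 bp, 71.1% (66.6 to 75.2%) at 600 to 699 bp and 89.3% (82.6 to 93.7%) at 800 to 899 bp. All 135 intervals of 1000 bp or more had several. At 500 bp or more there were 1134 intervals with several summits and 668 with 1. On either side of the rule, the 668 long intervals with 1 summit had a median fold enrichment of 30.0 and a median length of 547 bp, and the 1171 intervals with 2 summits had 21.6 and 611 bp. Fold enrichment is the authors' ratio of the signal at the summit over its local background.

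**Figure D1:**
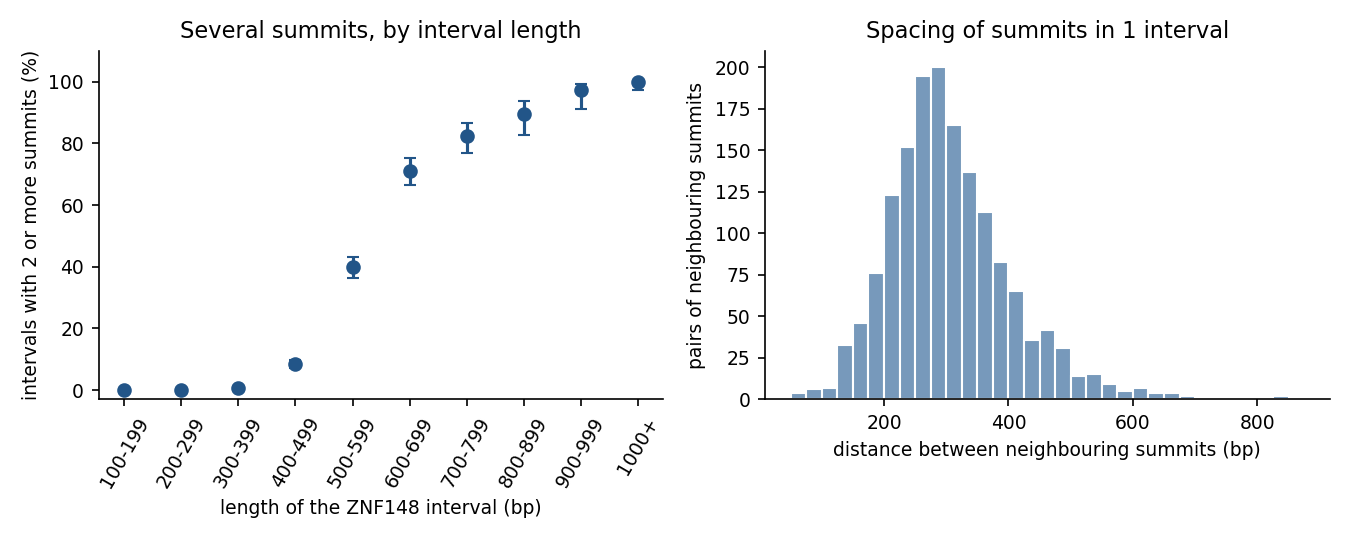
Left, share of ZNF148 intervals with 2 or more summits (%) in each class of interval length (bp), with 95% Wilson intervals as bars; right, number of neighbouring summit pairs by their distance (bp), in bins of 25 bp. The share passes from 8.38% at 400 to 499 bp to 71.1% at 600 to 699 bp, and the distances gather around a median of 293 bp.

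The spacing of neighbouring summits within an interval fell mostly in a limited range. Over the 1579 neighbouring pairs the median spacing was 293 bp, with quartiles of 243.5 and 358.5 bp and a range of 61 to 842 bp. Of these pairs, 74.1% were 200 to 400 bp apart, 3.17% were under 150 bp and 3.99% over 500 bp. The class of 250 to 299 bp held the most, 395 pairs. The median was 287 bp in intervals with 2 summits, 313 bp in those with 3 and 296 bp in those with 4, so longer intervals held more summits at about the same spacing. Beyond the outer summits the interval ran on for a median of 152 bp (121 and 192 bp) to its edge, against 118 bp (92 and 152 bp) in intervals with 1 summit. The shortest spacing that the authors' caller could resolve bounds this range, and its setting is not stated in the labels. Summits called in separate intervals are left out by the rule, which limits the range from above.

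The widest gap, 842 bp, lay between summits at 50327984 and 50328826 on chromosome 22, in an interval of 3 summits from 50327817 to 50329286. Next came 831 bp on chromosome 7, at 150065625 to 150066855, where folds of 45.5 and 32.5 stood at the ends of an interval with nothing called between them. The third, 764 bp, was on chromosome 11 at 69456059 to 69458369. The narrowest, 61 bp, was on chromosome 6 at 164683660 to 164683942, with folds of 5.0 and 7.21. Pairs at 63 bp on chromosome 7 (6144719 to 6145329) and 64 bp on chromosome 19 (1863769 to 1864715) followed. Summits of these narrowest pairs had folds of 5.0 to 10.0, while the widest gaps lay between summits of 22.5 to 48.9.

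These intervals were among the stronger ones in the list. Their most significant summit had a median fold of 23.1 (quartiles 13.8 and 35.3), against 9.38 (7.15 and 15.9) for intervals with 1 summit. The 1-summit intervals of 500 bp or more had a higher median than either, 30.0. When all ZNF148 intervals were ranked by q value and divided into 10 classes of equal size, intervals with several summits made up 11.4% of class 1 and 0.158% of class 10. Classes 1, 2 and 3 held 433, 348 and 215 of the 1354. Of the 100 most significant ZNF148 intervals, 32 had several summits. A peak must rise well above background for a side summit to pass the same threshold, so this relation is partly built into the rule.

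The weaker summits often had a fold of 10 or more too. In 782 of 1354 intervals (57.8%) every summit had a fold of 10 or more, and in 243 (17.9%) every summit had 20 or more. Among intervals with 1 summit, 48.1% reached a fold of 10, a share not matched for rank or length. The second-highest fold was a median of 0.629 of the highest (quartiles 0.440 and 0.818). It was at least 90% of the highest in 172 intervals and under 50% in 435. In 95 intervals the second-highest fold was under 25% of the highest.

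Within a pair, height and spacing were related. In 2-summit intervals with summits under 200 bp apart the median ratio of the lower to the higher fold was 0.833 (135 intervals). It was 0.618 at 200 to 299 bp (525 intervals), 0.563 at 300 to 399 bp (352) and 0.578 at 400 bp or more (159). Summits that close can share fragments, so their folds cannot be taken as separate measurements. The ratios were also not matched for the height of the pair, and what lies behind the relation was not tested. Across the 1171 pairs the fold at the lower coordinate correlated weakly with that at the higher one (Spearman's rho 0.29, Pearson's r of the log2 folds 0.32). Both folds come from 1 library and 1 local background, and every summit had to pass the same threshold.

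**Figure D2:**
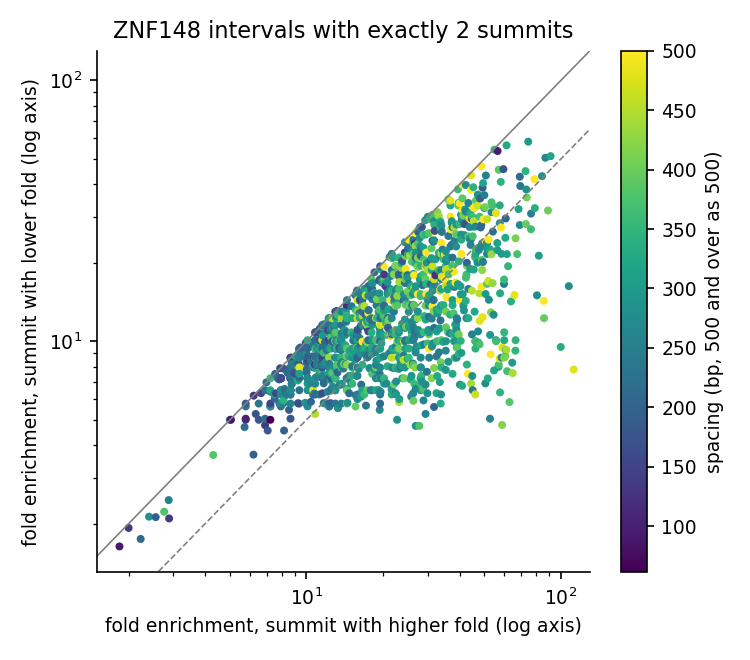
Each point is 1 of the 1171 ZNF148 intervals with exactly 2 summits, with the higher fold enrichment on the x axis and the lower on the y axis (both log axes), coloured by spacing in bp. The solid line marks equal folds and the dashed line a lower fold at 50% of the higher. The points spread from equal folds far below the dashed line, and 435 of all 1354 composite intervals have a second fold under 50% of the highest.

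The higher fold was at the lower coordinate in 540 of the 1171 pairs, 46.1% (43.3 to 49.0%), and at the higher coordinate in 613. The folds were equal in 18. In intervals with 3 summits the middle summit was highest in 66 of 151, or 43.7% (36.1 to 51.7%). An end summit was highest in 84.

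The most significant composite interval lay on chromosome 14 at 77494572 to 77495960. Its 3 summits had folds of 15.8, 110 and 48.4, with 517 and 526 bp between them. The second, on chromosome 3 at 177077337 to 177078089, had folds of 16.3 and 107.4 at 276 bp. On the same chromosome, the third at 176914109 to 176915974 had 4 summits with folds of 31.1, 53.3, 107.1 and 99.0, so 2 of its summits were of nearly the same height. A steep pair stood on chromosome 9 at 140210044 to 140210984, with folds of 7.80 and 112.3. Chromosome 6 at 108881826 to 108882450 had another, with 99.9 and 9.51. On chromosome 8 at 103423594 to 103424545 the folds were 21.9, 24.9 and 91.5.

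Chromosome 11 held 3 of the 10 most significant intervals, and their folds were lower for their q values. At 70962898 to 70964052 the folds were 20.5 and 48.9 with a −log10 q of 349. At 70049023 to 70050644 there were 5 summits, 2 of them with folds of 29.7 and 36.0 and 3 between 3.23 and 5.98, and the −log10 q was 322. At 65264743 to 65265375 a pair of summits 179 bp apart had folds of 45.7 and 59.5, and the −log10 q was 298. The 12 composite intervals on chromosome 11 from 69 to 71 Mb reached a −log10 q of 99.9 in the median at a median highest fold of 18.4, against 48.2 and 23.1 for all 1354. This stretch was picked after its values were seen. The remaining one of the 10 was on chromosome 14 at 64527135 to 64527898, with folds of 32.4 and 79.0.

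Intervals with the most summits were of several kinds. The one with 9 summits, on chromosome 6 at 58776272 to 58779527, was 3256 bp long and weak throughout, with folds up to 2.62. The one with 6 summits, also on chromosome 6 at 37786408 to 37788366, reached a fold of 34.3, and each of its summits had 11.3 or more. On chromosome 15 at 69109924 to 69111831, 5 summits had folds of 17.3, 13.0, 23.1, 57.3 and 6.47. Chromosome 12 at 54783766 to 54785622 had 5 summits with folds of 10.1, 25.3, 20.2, 19.5 and 8.66. The 4-summit interval on chromosome 11 at 69452644 to 69454555 had folds of 31.7, 40.6, 40.8 and 27.7. It lies beside the interval with the 764 bp gap, whose 3 folds were 48.9, 22.5 and 10.8. The other 4-summit intervals named by the same rule were on chromosome 5 at 133859959 to 133861435 (highest fold 63.4), chromosome 11 at 118306672 to 118307855 (56.3) and chromosome 4 at 103747843 to 103749168 (55.6).

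p63 peaks were found less often at these intervals than at the others. Of the 1354, 105 overlapped a p63 peak by at least 1 bp, or 7.75% (6.45 to 9.30%). The share was 12.2% (11.9 to 12.6%) for intervals with 1 summit and 12.1% over all ZNF148 intervals. It did not differ beyond counting error with summit number, at 7.60% for 2 summits (6.22 to 9.26%), 8.61% for 3 (5.10 to 14.2%) and 9.38% for 4 or more (3.24 to 24.2%). Conversely, 108 of 21520 p63 intervals, 0.502%, lay on a composite ZNF148 interval. Of the 10 most significant composite intervals, 2 overlapped p63, both on chromosome 14. At 77494572 to 77495960 the p63 peak had a fold of 6.68 and lay 258 bp from the nearest ZNF148 summit, and at 64527135 to 64527898 it had a fold of 34.5 and lay 50 bp from the lower ZNF148 summit. The 5-summit interval on chromosome 12 and the 4-summit interval on chromosome 5 also carried p63, with folds of 49.4 and 16.1 at 157 and 160 bp from a ZNF148 summit. Of the 100 most significant, 15 did (9.31 to 23.3%).

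The gap was wide among the strongest sites. In rank class 1, 42 of 433 composite intervals overlapped p63, 9.70% (7.26 to 12.9%), while 1702 of 3355 intervals with 1 summit did, 50.7% (49.0 to 52.4%). In class 2 the shares were 9.48% (6.83 to 13.0%) and 24.9% (23.5 to 26.4%), and in class 3 6.98% (4.27 to 11.2%) and 16.6% (15.4 to 17.8%). In class 4 they were 5.33% (2.73 to 10.2%) and 10.4% (9.44 to 11.4%). From class 4 on, the Wilson intervals of the shares overlapped, which does not by itself show that the shares were equal. Weighted to the rank classes of the composite intervals, the share of 1-summit intervals was 27.3%, a difference of −19.5 percentage points (95% interval −21.1 to −17.9, normal approximation). Among 1-summit intervals p63 overlap ran from 2.41% in class 10 to 50.7% in class 1, and among composite intervals from 0 of 10 in classes 9 and 10 together (upper Wilson bound 27.8%) to 9.70% in class 1. Within class 1, however, the median lengths were 763 and 374 bp.

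The gap was narrower between intervals of the same length. Among 1-summit intervals, p63 overlap was 28.4% (27.4 to 29.5%) at 300 to 399 bp and 30.7% (28.6 to 32.8%) at 400 to 499 bp. It was 14.5% (11.6 to 17.9%) at 500 to 599 bp and 9.02% (5.11 to 15.4%) at 600 to 699 bp. Long intervals with a single summit thus overlapped p63 less often than those of 300 to 499 bp. Shorter ones of 200 to 299 bp did so in 8.40% (7.97 to 8.85%), and those of 500 bp or more in 13.0% (10.7 to 15.8%). For composite intervals the shares were 8.16% (3.22 to 19.2%), 3.01% (1.29 to 6.86%), 8.95% (6.30 to 12.6%) and 8.67% (5.98 to 12.4%) in the 4 classes from 300 to 699 bp. At 600 to 799 bp, 9.18% of 490 composite intervals overlapped p63, against a length-weighted 7.41% of 163 with 1 summit, a difference of 1.77 points (−3.0 to 6.54).

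**Figure D3:**
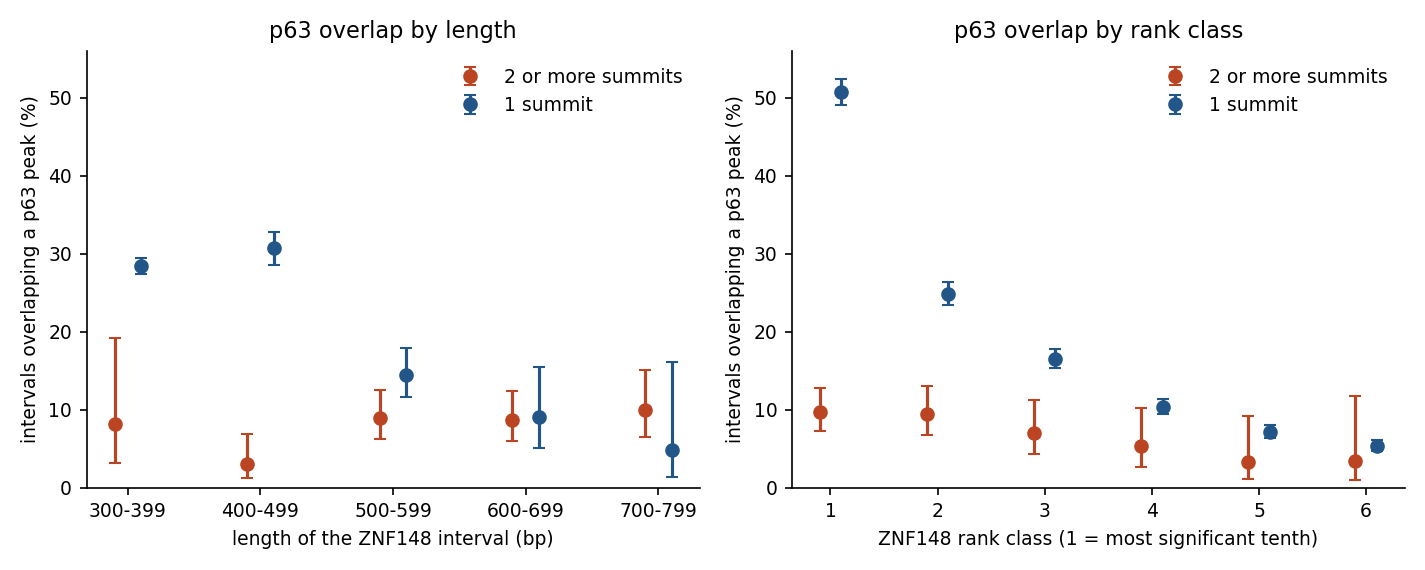
Share of ZNF148 intervals overlapping a p63 peak (%), with 95% Wilson intervals as bars, by interval length in bp (left) and by ZNF148 rank class (right), for intervals with 2 or more summits (red) and with 1 summit (blue). The blue points stand far above the red ones at 300 to 499 bp and in rank class 1 (50.7% against 9.70%), and the bars of both overlap from 500 bp on. Overlap of bars does not by itself show equal shares, which were 14.5% (blue) and 8.95% (red) at 500 to 599 bp.

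With length alone matched, in 100 bp classes from 300 to 799 bp, 8.07% of 1029 composite intervals overlapped p63 and 14.4% of the weighted 1-summit intervals, a difference of −6.33 points (−9.07 to −3.58). With length and rank class matched together, 998 composite intervals could be compared. Their share was 8.12% and that of the 1-summit intervals 9.95%, a difference of −1.83 points with an interval from −5.06 to 1.40. A difference of a few points in either direction cannot be told from counting error here. Composite intervals of 800 bp or more have almost no 1-summit counterpart of their length, and most lie outside this comparison.

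Coincidence of the summits themselves showed the same pattern. A p63 summit lay within 25 bp of a ZNF148 summit in 33 composite intervals, 2.44% (1.74 to 3.40%), against 7.91% (7.64 to 8.19%) of 1-summit intervals and 7.72% of all ZNF148 intervals. In rank class 1 the shares were 3.70% (2.29 to 5.92%) and 43.5% (41.8 to 45.1%). With length matched they were 2.53% and 7.79%, and with length and rank class matched 2.61% and 2.34%, a difference of 0.27 points (−1.05 to 1.58). Of the composite intervals that overlapped p63, 31.4% (23.3 to 40.8%) had such a close pair of summits, against 64.7% (63.3 to 66.1%) of overlapping 1-summit intervals. These last shares were not matched for length, and the overlapping intervals had median lengths of 641 and 325 bp. At 500 to 599 bp, 10 of 29 overlapping composite intervals had a close pair, against 33 of 71 with 1 summit. At 600 to 699 bp the counts were 7 of 26 and 3 of 11.

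The 105 intervals carried 114 p63 summits. Of these, 23 lay within 25 bp of the most significant ZNF148 summit and 11 within 25 bp of another one. A further 42, or 36.8% (28.6 to 46.0%), lay between the outer ZNF148 summits but away from any of them. Another 25 were in the interval on its outer side, and 13 were outside it, with the p63 interval reaching in. The median distance to the nearest ZNF148 summit was 66 bp, against 15 bp for p63 summits on 1-summit intervals. Each p63 summit on a composite interval had several ZNF148 summits to be near to, which by itself shortens that distance. Composite intervals are also longer, which by itself can lengthen it, and the medians were not matched for length.

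p63 also had a lower median fold on the composite intervals, in values not matched for ZNF148 interval length or rank class. Its median fold was 16.8 (quartiles 8.57 and 33.9) for the 114 summits, against 26.0 (13.8 and 41.9) for 4545 on 1-summit intervals. Among summits within 25 bp the medians were 21.4 (10.8 and 41.0, 34 summits) and 31.8 (18.6 and 46.9, 2890 summits). Among those farther away they were 13.5 (7.72 and 31.8) and 16.4 (9.41 and 30.0). The quartile ranges overlapped in each case, and among summits farther away the upper quartile was higher on composite intervals. Close summits made up 34 of the 114 and 2890 of the 4545, so the pooled medians mix them in unlike proportions. ZNF148 strength differed modestly between composite intervals with and without p63, with median folds of 26.0 (17.6 and 42.7) and 22.5 (13.7 and 34.4). Both groups had a median length of 641 bp. Among 1-summit intervals these medians were 23.8 and 8.85 for the fold and 325 and 234 bp for the length. By rank class, p63 overlap of composite intervals was 9.70% in class 1 and 3.30% in class 5 (3 of 91, 1.13 to 9.25%).

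In intervals with 2 summits, length and surroundings are the same for both, so they can be set against each other. Of 85 p63 summits inside such intervals, 49 were nearer to the more significant ZNF148 summit, 57.6% (47.0 to 67.6%), an interval that includes 50%. Among the 30 within 25 bp, 22 were at the more significant summit, 73.3% (55.6 to 85.8%). Among the 55 farther away, 27 were nearer to it, 49.1% (36.4 to 61.9%). Between the pair of ZNF148 summits lay 46 of the 85, 54.1% (43.6 to 64.3%).

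**Figure D4:**
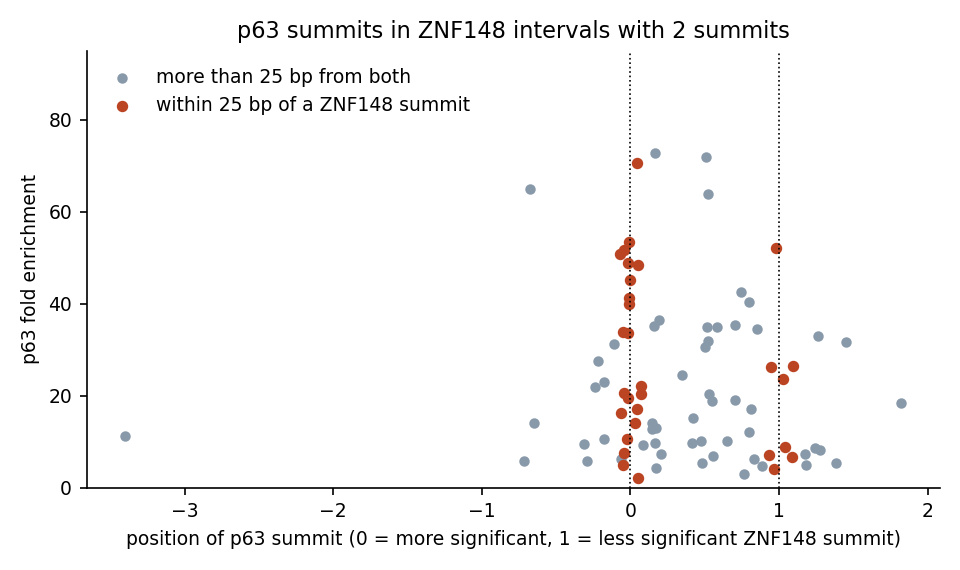
Position of the 85 p63 summits inside ZNF148 intervals with 2 summits, scaled so that 0 is the more significant and 1 the less significant ZNF148 summit (x axis), against p63 fold enrichment (y axis). Red points lie within 25 bp of a ZNF148 summit, 22 of them at 0 and 8 at 1; grey points are spread between and outside the summits.

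Among intervals that overlapped p63, composite ones held several p63 summits more often than 1-summit ones. Of the 105, 6 held 2 or more p63 summits, 5.71% (2.64 to 11.9%), against 5 of 4464 overlapping 1-summit intervals, 0.112% (0.0479 to 0.262%). With length matched the shares were 5.62% (5 of 89) and 0.0223%, a difference of 5.60 points (0.812 to 10.4), which rests on 5 composite intervals and on length classes with as few as 1 interval allowed. p63 summits lay within 25 bp of 2 different ZNF148 summits in 1 of the 1354 intervals, on chromosome 11 at 86958452 to 86959052. There the ZNF148 folds were 22.8 and 28.8 with summits 305 bp apart. A p63 peak with a fold of 23.7 stood 8 bp from the first, and another with a fold of 5.04 stood 15 bp from the second, so the higher p63 peak was at the lower ZNF148 summit.

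The most significant intervals with close summits mostly had p63 at their main ZNF148 summit. They are named here after their values were seen. On chromosome 8 at 115516196 to 115516911, ZNF148 folds were 8.78 and 60.4, and a p63 peak with a fold of 39.9 lay 5 bp from the higher. On chromosome 5 at 137304208 to 137304986 the ZNF148 folds were 8.66 and 59.9, with a p63 fold of 70.6 at 18 bp from the higher. On chromosome 14 at 77499203 to 77500298 a p63 summit coincided to the base with the ZNF148 summit of fold 58.9. On chromosome 22 at 46503118 to 46503889 a p63 peak of fold 20.5 lay 20 bp from the ZNF148 summit of fold 64.7. In the other two the p63 summit was not at the most significant ZNF148 summit. On chromosome 1 at 26946789 to 26947865 the p63 summit (fold 19.9) was 10 bp from the middle ZNF148 summit of fold 36.1, not from the first of fold 80.1. On chromosome 8 at 103822593 to 103823297 the ZNF148 folds were 54.8 and 54.3, and a weak p63 peak with a fold of 4.10 lay 11 bp from the latter.

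The Wilson intervals of p63 overlap shared values between classes of composite intervals cut by fold ratio or spacing, which does not by itself show equal shares. Where the second fold was under 50% of the highest, 10.1% overlapped p63 (7.62 to 13.3%). Where it was 50 to 90%, 6.43% did (4.88 to 8.42%), and at 90% or more 7.56% did, of 172 intervals. By narrowest spacing the shares were 7.19% under 250 bp, 8.09% at 250 to 349 bp and 7.89% at 350 bp or more.

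p63 was not rare around the composite intervals. A p63 interval that did not overlap lay within 10 kb of 33.8% of them (31.3 to 36.3%), against 26.2% (25.8 to 26.7%) of 1-summit intervals and 26.5% of all. Within 50 kb the shares were 72.6% (70.2 to 74.9%) and 66.1% (65.6 to 66.6%), and 66.4% over all ZNF148 intervals. With length and rank class matched the differences were 2.89 points (−2.08 to 7.86) at 10 kb and 0.65 points (−3.99 to 5.30) at 50 kb.

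Composite intervals stood close to other ZNF148 intervals. Another ZNF148 interval lay within 12500 bp of 77.0% of them (74.6 to 79.1%), against 54.6% (54.1 to 55.1%) of 1-summit intervals and 55.4% of all. The median gap to the nearest was 1.38 kb against 9.45 kb. With length matched the shares were 75.9% and 73.5%, a difference of 2.40 points (−1.85 to 6.65), an interval that includes 0. Another composite interval lay within 12500 bp of 217, or 16%, a share that was not set against 1-summit intervals or all ZNF148 intervals.

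Their share varied between chromosomes. It was 5.87% on chromosome 19 (4.86 to 7.07%), 5.33% on chromosome 17 (4.52 to 6.29%), 5.16% on chromosome 21 (3.33 to 7.92%) and 4.69% on chromosome 9 (3.79 to 5.78%). It was 1.49% on chromosome 18 (0.682 to 3.20%) and 1.82% on chromosome 4 (1.20 to 2.74%). Chromosomes 19 and 17 had 1.73 and 1.64 composite intervals per Mb, and chromosome 18 had 0.0770. Across the 23 chromosomes the share rose with the density of ZNF148 intervals (r 0.68 by Pearson and rho 0.69 by Spearman). Without chromosomes 22 and 17, which lie farthest from the median density, r was 0.69. The share of intervals of 500 bp or more rose likewise (r 0.80, rho 0.78), whereas among such long intervals the share with several summits had r 0.16 and rho 0.23. Without chromosomes 22 and 17 these r values were 0.75 and 0.39. These are descriptions over chromosomes of 1 library, which share its depth and threshold.

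**Figure D5:**
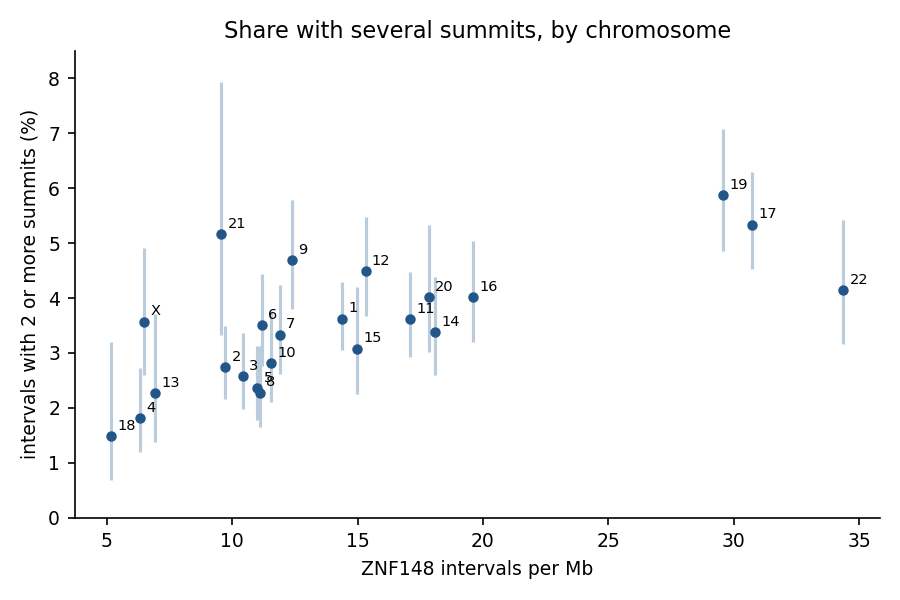
Each labelled point is a chromosome, with ZNF148 intervals per Mb on the x axis and the share of them with 2 or more summits (%) on the y axis, bars being 95% Wilson intervals. Chromosomes 19 and 17 lie at 5.87% and 5.33%, chromosomes 18 and 4 at 1.49% and 1.82%, and chromosome 21 lies high for its density with a wide bar.

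In windows of 1 Mb, 749 of the 2818 windows with a ZNF148 interval held a composite one, and 49 held 5 or more. By count chromosome 9 had the fullest, with 13 of 165 ZNF148 intervals from 139 to 140 Mb and 12 of 100 from 140 to 141 Mb. Chromosome 19 had 12 of 104 from 1 to 2 Mb and chromosome 1 had 11 of 67 from 156 to 157 Mb. In the last of these none of the 11 overlapped p63, and in the others 1 did in each. Over the whole list 3.57% of ZNF148 intervals were composite, and 7.75% of composite intervals overlapped p63. The windows were picked for these counts.

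Overlap with p63 also differed between chromosomes, on small numbers. On chromosome X, 0 of 36 composite intervals overlapped p63 (upper Wilson bound 9.64%), while 27.8% of the 972 1-summit intervals there did (25.1 to 30.7%). Chromosome 4 had 1 of 22, against 25.3% of 1-summit intervals (22.9 to 27.9%). On chromosome 22 it was the reverse, with 9 of 50, 18% (9.77 to 30.8%), against 5.45% (4.28 to 6.91%). Chromosome 14 had 11 of 54, 20.4% (11.8 to 32.9%), against 10.9% of 1542. These 4 chromosomes were picked from 23 after the values were seen. Of long 1-summit intervals, 2 of 11 on chromosome X and 2 of 31 on chromosome 22 overlapped p63, too few to match for length there.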

How the data were processed

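Per the submitters' processing notes the tools included MACS2 2.2.6 and Bowtie2 2.3.4.3, with SAMtools 1.7, FastQC 0.11.9 and MultiQC 1.12, on the build hg19; roles and settings are not listed. Whether summits were split by a caller option, the control library and duplicate handling are not given in the sources used here. Coordinates are 1-based hg19 positions. The lists have no header and were read in narrowPeak order: per summit, the authors deposited a fold enrichment (a ratio), −log10 p and −log10 q values, and a score, which was not used. Read depth is unknown.

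Rows on chromosomes 1 to 22 and X were used (39462 for ZNF148, 21708 for p63). Rank classes follow the −log10 q of the most significant summit, with ties broken by position. Shares of 1-summit intervals were weighted to the length classes (at least 20 intervals of each kind) or length and rank cells (at least 5 with 1 summit) of the composite intervals. The functions were tested on simulated lists. Python 3.11.15, numpy 2.4.6, pandas 2.3.3 and scipy 1.17.1 were used.

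Intervals named were the 10 with the highest q significance, the 10 with the most summits, those with p63 within 25 bp of 2 or more summits, and the 3 widest and 3 narrowest spacings. Members, limits and rules were chosen with earlier results of these data known. Gene names and sequence features planned for an hg19 annotation were not analysed here.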

Additional observations from a re-analysis of the deposited data

Results flagged for a closer look

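Intervals with several summits were also present outside chromosomes 1 to 22 and X, in rows that no comparison above uses. The ZNF148 list had 13 there, of 170 intervals, and the p63 list had 20 of 166. They appear here because both are above 3, the upper limit for a count of 0. The unplaced contig gl000220, known to carry ribosomal DNA repeats, held 11 of the 13 and 16 of the 20. Its ZNF148 intervals had up to 8 summits and a median highest fold of 7.75, and its p63 intervals up to 10 summits and a median of 2.53.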

How the results depend on the processing

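Under 36 alternatives, 27 values lay inside the 95% interval of the value reported (numbers of intervals within 1.5 times), and 9 lay outside. The number of composite intervals, 1354, was 1333 both with summits of −log10 q of at least 5 and with summits of fold of at least 5, 1080 with −log10 q of at least 10 and 919 with summits of at least 50% of the highest fold. The median spacing of 293 bp became 287 bp in 2-summit intervals and 301 bp with −log10 q of at least 10. The share overlapping p63 stayed between 6.79 and 7.87%. The share with close summits, 2.44%, was 1.03% within 10 bp, 5.32% within 100 bp and 1.7% with the most significant ZNF148 summit alone. The share of p63 summits nearer to the more significant summit, 57.6%, was 73.3% among those within 25 bp. On chromosome 19 the composite share was 8.15% with −log10 q of at least 10. Neighbours within 5 and 25 kb in place of 12500 bp gave 66.2% and 84.8%. The 1-summit share matched for length and rank, 9.95%, ran from 8.76 to 10.1% under 4 settings added after seeing the data. Without replicate lists or read depth, site-to-site error beyond counting is unknown. No paired analysis was possible because each antibody has 1 library.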

Other observations

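A few composite intervals were weak. In 13 of the 1354, 0.960%, the highest fold was under 5, against 667 of 36529 1-summit intervals, 1.83%. The 13 composite intervals were named after their values were seen. Their median length was 551 bp (quartiles 439 and 850 bp). Chromosome 10 held 7 of them, 6 of which lay between 42384269 and 42393471 with highest folds of 2.23 to 2.89. Chromosome 16 held 2, at 46404094 to 46404341 and 46405062 to 46405500, with highest folds of 1.84 and 2.0. Chromosome 1 had 1 at 121484086 to 121485425 with 4 summits and a highest fold of 3.29, and chromosome 7 had 1 at 61968605 to 61969698 with 3 summits and 3.32. The interval of 9 summits on chromosome 6 was among the 13, and at 3256 bp was the longest of them. One of the 13 overlapped p63, on chromosome 21 at 9825653 to 9826453, where the p63 interval had 3 summits with a highest fold of 2.94. Without the 13, the share of composite intervals overlapping p63 was 7.76%.

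p63 had far fewer composite intervals of its own. Of 21520 p63 intervals, 182 had several summits, 0.846% (0.732 to 0.977%), with a median length of 533 bp and a median spacing of 266.5 bp. Of the 182, 68 lay on a ZNF148 interval with 1 summit, a count that was not set against other p63 intervals. On a composite ZNF148 interval lay 5 of the 182, 2.75% (1.18 to 6.27%). Of the 21338 p63 intervals with 1 summit, 103 did, 0.483% (0.398 to 0.585%). These percentages were not matched for p63 interval length, so whether length alone gives the difference was not tested. The 5 include the weak p63 interval on chromosome 21 described above. The lists differ in background and in unknown depth, so these shares do not rank the proteins.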
